A study of Mus musculus with 4 samples.

Results

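The Hedgehog pathway of the embryonic retina was followed through 9 genes, chosen by name for their place in the pathway. They are the ligand gene *Shh*, the receptor gene *Ptch1*, the gene of the ligand-binding inhibitor *Hhip*, the co-receptor genes *Boc* and *Cdon*, the transducer gene *Smo* and the transcription factor genes *Gli1*, *Gli2* and *Gli3*. All 9 were found among the 24062 genes of the count table, and all 9 passed the filter on low counts that left 15762 genes for testing. RNA-seq was performed on retinas of E13.5 mouse embryos of mixed C57BL/6 129 background, with 2 libraries labelled wild type and 2 labelled Nrf1-CKO. In the second group both alleles of *Nrf1*, the gene of nuclear respiratory factor 1, carry loxP sites, and the *Six3-Cre* transgene deletes an exon in retinal progenitor cells (RPCs), first in the central retina. This group is called Nrf1 f/f;Six3-Cre or mutant here, and the labels do not say whether the wildtype embryos carried the transgene. According to the methods of the study, retinas of several littermates were pooled and the RNA-seq experiment was duplicated. Whether each library had its own pool is not said. Differences between single embryos are thus not seen, and all p values refer to the spread between 2 libraries per genotype.

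In the absence of ligand, Ptch1 holds the membrane protein Smo inactive, and Gli2 and above all Gli3 are processed into repressors. Ligand bound to Ptch1, with help from the co-receptors Boc, Cdon and Gas1, releases Smo. By way of the primary cilium, Gli2 and Gli3 then escape processing into repressors and act as activators. *Gli1*, *Ptch1* and *Hhip* are direct targets, of which the last 2 restrain the signal and *Gli1* strengthens it. In the developing retina, newborn retinal ganglion cells (RGCs) secrete Shh, and the RPCs beside them respond by dividing.

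The libraries held 74577660 to 85933945 reads counted on genes, and levels are given as CPM, reads per 1000000 reads after scaling with edgeR's TMM factors. *Nrf1* itself was at 103 and 105 CPM in wildtype and 103 and 100.1 CPM in mutant libraries, and a count over the whole gene says little about the loss of 1 exon, so it does not check the labels. Calls of marker genes follow the thresholds given below, at which 8.04% of all tested genes were called lower and 12.8% higher. The summed level of 13 RGC markers was 3286 and 3733 CPM in wildtype and 1420 and 1149 CPM in mutant libraries. Of the 13 genes, 11 were called lower and 1 higher. For 11 RPC markers, the sums were 6116 and 6541 CPM against 5430 and 5841 CPM, and 2 genes were called lower. Several lists of markers of tissues around the retina were higher in the mutant. The sums of 8 lens genes were 133 and 370 CPM in wildtype and 7777 and 3169 CPM in mutant libraries, those of 8 pigment epithelium genes 232 and 168 against 422 and 447 CPM, and those of 9 macrophage and microglia genes 79.2 and 75.2 against 240 and 293 CPM. All 8 lens genes, the 7 pigment epithelium genes tested and all 9 macrophage genes were called higher, while *Rpe65*, a marker of mature pigment epithelium, was at 0 to 4 reads in every library. Smaller shifts of the sums were seen for 10 periocular mesenchyme genes, from 321 and 290 to 364 and 318 CPM, with 6 called higher and 1 lower. The sums of 8 endothelial genes went from 274 and 277 to 297 and 290 CPM, with 6 called higher and 1 lower. Those of 6 erythroid genes went from 550 and 650 to 712 and 713 CPM, with 2 of 4 tested genes called higher. *Hba-a1* and *Hbb-bt* were at 0 in every library. The 4 markers of ventral forebrain, another source of Shh, summed to at most 0.135 CPM in any library, with *Foxa2* at 0 in every library. The part of these other cells in the results that follow was not tested. In bulk retinas, fewer cells of a type and less RNA per cell cannot be told apart.

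The 9 genes did not move together. The ligand gene *Shh* and the targets *Gli1*, *Ptch1* and *Hhip* fell in Nrf1 f/f;Six3-Cre retinas, the co-receptor genes *Boc* and *Cdon* rose, and *Smo*, *Gli2* and *Gli3* did not pass the thresholds. A gene was called with the thresholds of the study, a change of at least 1.4-fold and an adjusted p of at most 0.2, in edgeR's quasi-likelihood test. Thus 4 of 9 members were called lower, where the share of all tested genes called lower was 8.04%, and 2 of 9 were called higher, where it was 12.8%. In either direction, 6 of 9 members and 20.9% of all tested genes were called. The mutant libraries lay beyond the wildtype libraries in all 9 genes, 4 times below and 5 times above, and in 62.5% of all tested genes (31.6% below and 30.9% above). The median log2 fold change of the 9 members was 0.23, and that of all tested genes was 0.00073.

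**Figure D1:**
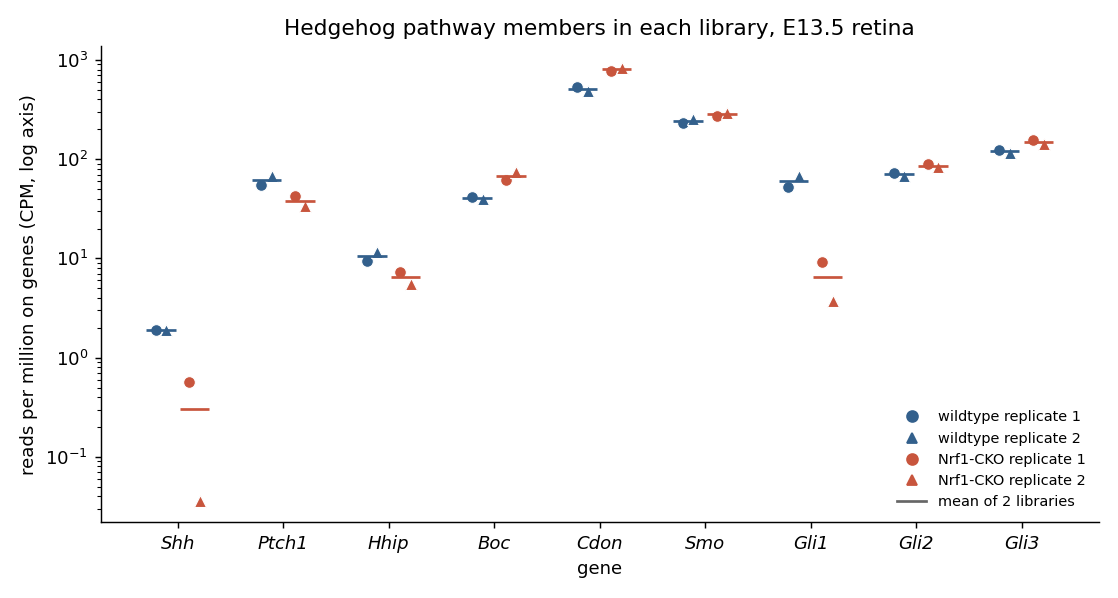
Level of the 9 Hedgehog members in each library, in CPM on a log axis, not corrected for gene length. Circles are replicate 1 and triangles replicate 2, blue wildtype and red Nrf1 f/f;Six3-Cre (Nrf1-CKO), and bars are the means of 2 libraries. The genotypes do not overlap in any of the 9 genes, and the mutant libraries stand far apart from each other for *Shh* (0.566 and 0.0363 CPM) and *Gli1* (9.21 and 3.75 CPM).

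*Shh*, which lies on chromosome 5 of GRCm38 from 28456815 to 28467256 on the minus strand and has 3 exons, encodes the ligand made by RGCs. It was a rare transcript, with 1.88 and 1.91 CPM in wildtype and 0.566 and 0.0363 CPM in mutant libraries, from 165, 142, 47 and 3 reads. The wildtype libraries were nearly equal, while the mutant libraries were both lower and unlike each other. The mutant mean was 15.8% of the wildtype mean, or -2.65 on the log2 scale (standard error, SE, 0.81, edgeR adjusted p = 0.0452). Replicate 1 of the mutant kept 29.8% of the wildtype level, with an exact 95% interval of 21.4% to 40.6%, and replicate 2 kept 1.91%, with an interval of 0.392% to 5.64%. These intervals cover counting error only, and the mutant libraries differed from each other by more than that, 15.6-fold with an interval of 5.02 to 78.4. On leaving out single libraries, the log2 fold change was -1.75 without mutant replicate 2 and -5.65 without mutant replicate 1, and the latter rests on 3 mutant reads. The call was made with any 1 of the 4 libraries left out. On the normalized values deposited by the authors, the log2 difference was smaller, at -0.68, and *Shh* was still called. In these values a count of 0 has the value 8.13, which compresses differences between low counts.

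*Shh* was compared with the RGC markers, since RGCs are its known source. Per 10000 reads on the 13 markers, *Shh* had 5.73 and 5.13 reads in wildtype and 3.98 and 0.315 reads in mutant libraries. The mutant mean of the summed markers was 36.6% of wildtype, against 15.8% for *Shh*. This sum includes the 1 marker called higher, at a log2 fold change of 3.98, while the median of the 13 markers was -1.48. Hence, mutant replicate 2 was far lower than wildtype on this scale too, while replicate 1 was closer to wildtype than it was in CPM.

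The other ligand genes were rarer than *Shh* in wildtype retinas. *Ihh*, which is known from growing cartilage and from cells beside the pigment epithelium, had 26 and 16 reads in wildtype and 32 and 40 reads in mutant libraries, and its log2 fold change of 0.75 was not called (SE 0.62, edgeR adjusted p = 0.437). *Dhh*, known from Sertoli cells and from Schwann cells of peripheral nerves, had 0 and 4 reads in wildtype and 51 and 39 reads in mutant libraries. It was called higher, with an adjusted p of 0.0167 from edgeR, and the summed reads differed 21.9-fold with an exact counting interval of 8.28 to 82.3. Since the wildtype value rests on 4 reads of replicate 2, its size is poorly known. The log2 fold change was 3.30 without wildtype replicate 1, and without replicate 2 the wildtype was at 0. On the deposited normalized values the log2 difference was 0.48, below 1.4-fold, and *Dhh* was not called. A count of 0 has the value 8.13 there, which compresses differences between low counts, so the lost call says little about *Dhh*. Per kilobase of the longest transcript, *Dhh* and *Ihh* were at 0.128 ± 0.0238 and 0.176 ± 0.0282 CPM in the mutant and *Shh* at 0.106 ± 0.132 CPM (SD, n = 2), so both overlapped with *Shh* there, whereas *Shh* was the highest in both wildtype libraries at 0.667 ± 0.0076 CPM per kilobase.

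*Ptch1* encodes the receptor, and its transcript rises where the pathway is active. It lies on chromosome 13 of GRCm38 from 63508328 to 63573598 on the minus strand. Its level was 54.8 and 67.1 CPM in wildtype and 42.1 and 33.6 CPM in mutant libraries, so the mutant was at 62.1% of wildtype. This was -0.69 in log2 fold change (SE 0.13, edgeR adjusted p = 0.00526), and it lay between -0.86 and -0.53 when single libraries were left out. *Hhip*, on chromosome 8 from 79965851 to 80058006 on the minus strand, encodes a membrane protein that binds the ligand and takes it away from Ptch1. It had 9.40 and 11.6 CPM in wildtype and 7.34 and 5.55 CPM in mutant libraries, 61.3% of wildtype. The change was -0.71 in log2 (SE 0.18, edgeR adjusted p = 0.0237). On the normalized values that the authors deposited, the change of *Hhip* was smaller than 1.4-fold, with a log2 fold change of -0.43. *Hhip* was also not called by edgeR's glmTreat, which tests against a change of 1.4-fold (adjusted p = 0.314, in a range from 0.00181 over the alternatives).

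The windows around the annotated starts of these 2 targets, from RefSeq on GRCm38.p6, are shown as the start regions of genes that fell. Each reads 5′ to 3′ on the minus strand, with 250 bases before the start in lower case and 50 bases after it in capitals.
Ptch1, chr13:63565686-63565985: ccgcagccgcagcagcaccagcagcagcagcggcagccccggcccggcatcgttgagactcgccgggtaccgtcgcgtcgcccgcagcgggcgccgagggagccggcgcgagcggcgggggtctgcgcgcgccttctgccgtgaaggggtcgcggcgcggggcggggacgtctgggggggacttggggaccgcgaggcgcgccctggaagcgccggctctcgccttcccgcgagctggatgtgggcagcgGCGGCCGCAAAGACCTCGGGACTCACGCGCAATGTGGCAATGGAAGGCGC
Hhip, chr8:80057959-80058258: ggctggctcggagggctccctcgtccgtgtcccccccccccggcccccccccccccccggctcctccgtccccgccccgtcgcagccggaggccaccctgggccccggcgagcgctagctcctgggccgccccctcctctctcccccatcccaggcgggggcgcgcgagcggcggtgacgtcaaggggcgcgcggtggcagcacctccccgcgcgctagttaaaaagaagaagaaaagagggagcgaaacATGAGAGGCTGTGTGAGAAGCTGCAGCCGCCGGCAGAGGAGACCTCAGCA
Both windows were rich in G and C, at 76.3% and 73.7%. The windows of *Ptch1*, *Cdon* and *Gli3* lie inside the spans of these genes, downstream of the outermost start. Windows were found for 6 of the 9 members, *Ptch1*, *Hhip*, *Cdon*, *Smo*, *Gli2* and *Gli3*. Both strands were searched for GACCACCC, the letters of the GLI motif, and for GCGCANGCG, the core of the NRF1 motif, 2 motifs of which neither contains the other. None of the 6 windows held either of them, and of all 32851 windows of this length 0.807% held the first and 6.25% the second. These letters may still lie outside the windows.

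*Gli1* had the largest decrease of the 9 genes in the fit to all 4 libraries. It lies on chromosome 10 of GRCm38 from 127329882 to 127341974 on the minus strand, and it encodes an activator that has no repressor form. There were 4585 and 5019 reads in wildtype and 765 and 310 reads in mutant libraries, that is 52.4 and 67.7 CPM against 9.21 and 3.75 CPM. All mutant values lay far below all wildtype values, and the mutant mean was 10.8% of wildtype. This was -3.21 in log2 fold change (SE 0.33, edgeR adjusted p = 0.000296). Its size varied with the mutant library, from -2.71 without mutant replicate 2 to -4.00 without mutant replicate 1, and it was -2.47 on the deposited normalized values. The difference was also there beside the RPC markers. Per 10000 reads on these 11 genes, *Gli1* had 85.6 and 103 reads in wildtype and 17.0 and 6.42 reads in mutant libraries.

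*Gli2* and *Gli3*, which carry the pathway before *Gli1* is made, did not follow it. *Gli2*, on chromosome 1 from 118834132 to 119053619, had 72.9 and 67.9 CPM in wildtype and 88.9 and 83.2 CPM in mutant libraries. *Gli3*, on chromosome 13 from 15463235 to 15730026, had 124 and 116 CPM against 155 and 144 CPM. Their log2 fold changes were 0.29 and 0.31, each with a standard error of 0.08 and with adjusted p = 0.0313 and 0.0244 from edgeR, but both were below 1.4-fold and neither gene was called. In both genes, both mutant libraries lay slightly above both wildtype libraries.

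The make-up of the *Gli* transcripts changed accordingly. Per kilobase of transcript, *Gli1* made up 33.0% and 40.5% of the *Gli* total in wildtype libraries and 6.55% and 2.98% in mutant libraries. The share of *Gli3* was 39.0% and 34.6% in wildtype and 54.8% and 56.6% in mutant libraries. That of *Gli2* was 28.1% and 24.9% against 38.7% and 40.4%. The total over the 3 genes was 39.1 and 41.1 CPM per kilobase in wildtype and 34.6 and 31.0 CPM per kilobase in the mutant, lower in both mutant libraries.

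**Figure D2:**
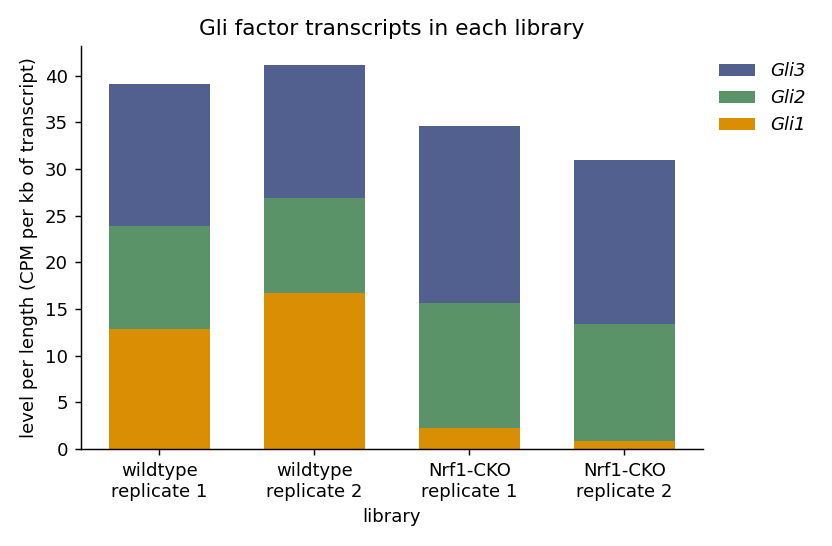
Levels of *Gli1*, *Gli2* and *Gli3* stacked for each library, in CPM per kilobase of the longest coding transcript, 1 bar per library. The *Gli1* part shrinks from 12.9 and 16.7 in the wildtype to 2.27 and 0.923 in mutant libraries, while the *Gli2* and *Gli3* parts are slightly taller in the mutant.

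A ratio of 2 genes within a library does not depend on the scaling between libraries. The ratio of *Gli1* to *Gli3* reads was 0.420 and 0.583 in wildtype and 0.0594 and 0.0261 in mutant libraries, a difference of -3.65 between the means on the log2 scale. For *Gli1* to *Gli2*, the ratios were 0.718 and 0.996 against 0.104 and 0.0450, a difference of -3.63. On the deposited normalized values these 2 differences were -2.77 and -2.74. *Ptch1* to *Smo* had ratios of 0.235 and 0.265 against 0.153 and 0.114, and *Ptch1* to *Gli3* had 0.440 and 0.577 against 0.272 and 0.234, and the first of them differed by -0.91. In each of the 4 ratios, both mutant libraries lay below both wildtype libraries. The exact permutation test over 4 libraries gave p = 0.333 for each (two-sided), which is the smallest value that 2 against 2 can give, so these tests cannot pass a threshold of 0.05.

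The co-receptor genes moved in the opposite direction to the targets. Boc and Cdon are membrane proteins of the immunoglobulin superfamily that bind Shh beside Ptch1, and in other embryonic tissues both genes are known to be repressed by Hedgehog signalling. *Boc*, on chromosome 16 from 44485049 to 44558897 on the minus strand, had 41.4 and 40.1 CPM in wildtype and 62.3 and 73.4 CPM in mutant libraries. It rose to 166% of wildtype, that is 0.74 in log2 fold change (SE 0.09, edgeR adjusted p = 0.000786). *Cdon*, on chromosome 9 from 35421128 to 35507652, had the highest CPM of the 9 genes, without correction for length, with 529 and 486 CPM in wildtype and 775 and 837 CPM in mutant libraries. It rose to 159% of wildtype, that is 0.67 in log2 fold change (SE 0.09, edgeR adjusted p = 0.000794). For both genes the difference between genotypes was larger than that between replicates, and when single libraries were left out it lay between 0.61 and 0.85 for *Boc* and between 0.61 and 0.73 for *Cdon*.

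*Smo*, on chromosome 6 from 29735503 to 29761365, encodes the transducer that Ptch1 restrains. Its level was 233 and 253 CPM in wildtype and 274 and 294 CPM in mutant libraries. The mutant libraries lay above the wildtype libraries, with a gap about as wide as that between replicates, and the log2 fold change of 0.23 was below 1.4-fold (SE 0.08, edgeR adjusted p = 0.0868).

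**Figure D3:**
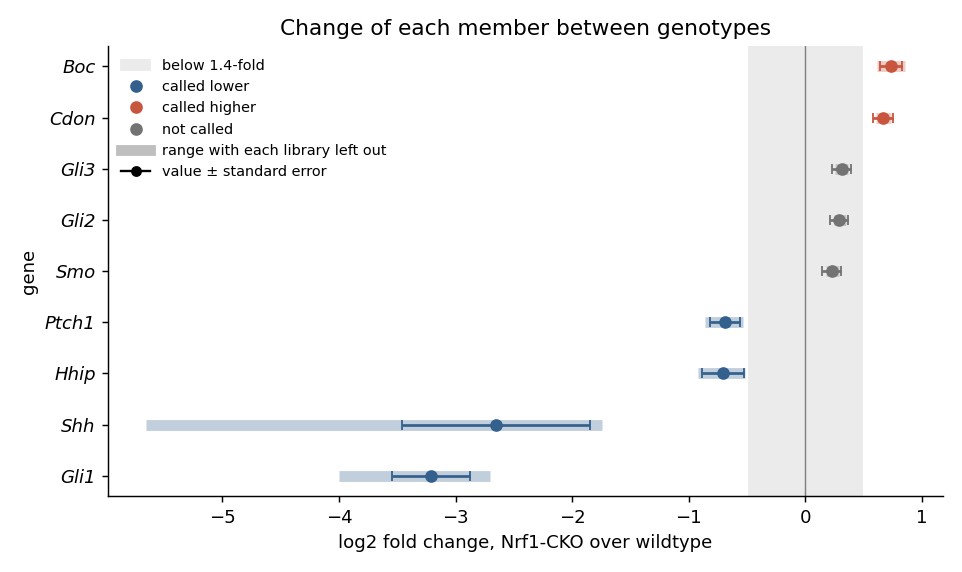
Log2 fold change of each member, mutant over wildtype, ordered by size. Points with thin bars are the value and its standard error from edgeR, wide bars the range when single libraries were left out, and the grey band marks changes below 1.4-fold. *Gli1* and *Shh* lie far to the left, *Hhip* and *Ptch1* near -0.70, and *Boc* and *Cdon* to the right, while *Smo*, *Gli2* and *Gli3* lie inside the band.

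Levels of different genes were compared per kilobase of the longest coding transcript. In wildtype retinas, *Cdon* (67.7 ± 3.96 CPM per kilobase) and *Smo* (64.3 ± 3.64) were the highest and overlapped, followed by *Gli1* (14.8 ± 2.67) and *Gli3* (14.7 ± 0.725), which overlapped as well (SD, n = 2). Then came *Gli2* (10.6 ± 0.531), *Boc* (9.15 ± 0.22), *Ptch1* (7.89 ± 1.12), *Hhip* (1.16 ± 0.174) and *Shh*, with no overlap of libraries between neighbours in this order. In mutant retinas, *Gli1* came after *Ptch1*, at 1.60 ± 0.952 CPM per kilobase against 4.90 ± 0.776, and *Boc*, at 15.2 ± 1.77, came before *Gli2*, at 13.0 ± 0.604. There, no neighbours in the order overlapped.

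The rest of the pathway was examined with a list of 44 genes, of which 43 were tested. Of these, 2 were called lower and 6 higher, beside the 8.04% and 12.8% of all tested genes given above, and 35 were not called. The median log2 fold change of the 43 was -0.03. Of the 8 called genes, 2 were receptors and 3 targets.

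Both other receptor genes of the list were called higher, where the share of all tested genes called higher was 12.8%. *Gas1*, on chromosome 13 from 60174405 to 60177365, encodes a co-receptor anchored to the membrane by a lipid, whose gene, like those of Boc and Cdon, is known to be repressed by the signal. It rose from 53.9 and 66.1 CPM to 128 and 150 CPM, that is 1.22 in log2 fold change (SE 0.12, edgeR adjusted p = 0.000231). *Lrp2*, which encodes megalin, an endocytic receptor that takes up Shh, rose from 170 and 153 CPM to 309 and 366 CPM, that is 1.06 in log2 fold change (SE 0.10, edgeR adjusted p = 0.000236). The pigment epithelium, lens and macrophage markers given above moved in the same direction as *Gas1*, *Lrp2*, *Boc* and *Cdon*. Of the mesenchyme markers, 6 of 10 were called higher and 1 lower, with a median log2 fold change of 0.74, although their sums overlapped between genotypes. Over all tested genes, 12.8% were called higher and 8.04% lower. The part of these markers in the increases was not tested.

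Among the 8 genes of other ligands and of ligand release, *Disp2* was called lower and *Dhh* higher, which at 25% is near the 20.9% of all tested genes. *Disp1*, whose protein frees the lipid-modified ligand from the cell that makes it, had a log2 fold change of 0.07 and was not called. Its relative *Disp2* had 21.5 and 24.4 CPM in wildtype and 7.10 and 2.84 CPM in mutant libraries, or -2.21 in log2 fold change (SE 0.33, edgeR adjusted p = 0.00176). It lay between -3.01 and -1.69 when single libraries were left out, with mutant replicate 2 again the lower one, and was -1.50 on the deposited normalized values. The study lists *Disp2* as expressed in RGCs, whose markers were also lower.

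Of the 9 genes whose products act at the cilium, 1 was called, *Kif7*, or 11.1%, beside 20.9% of all tested genes. It encodes a kinesin that organises the tip of the cilium and helps to control Gli proteins, and it had 27.0 and 28.6 CPM in wildtype and 36.5 and 44.0 CPM in mutant libraries (log2 fold change 0.54, standard error 0.11, adjusted p = 0.0072 from edgeR). Without mutant replicate 2, its log2 fold change was 0.39 and no longer 1.4-fold. The call was also lost on the deposited normalized values, at 0.45, and with glmTreat in edgeR (adjusted p = 0.706, the highest over the alternatives, from 3.65e-06). *Sufu*, whose protein binds Gli factors and holds them back, had 46.8 and 48.8 CPM against 59.3 and 56.3 CPM, a log2 fold change of 0.27 that was below 1.4-fold. Of the 9 cilium genes, 4 had a log2 fold change below 0 and 5 above, from -0.43 to 0.54. None of the 12 genes of Gli phosphorylation and turnover, among them the subunits of protein kinase A and *Gsk3b*, was called by edgeR, beside 20.9% of all tested genes, and their log2 fold changes lay between -0.32 and 0.12. At an unadjusted p under 0.05 there was 1 gene in edgeR, and DESeq2 and limma on the deposited values called 0.

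**Figure D4:**
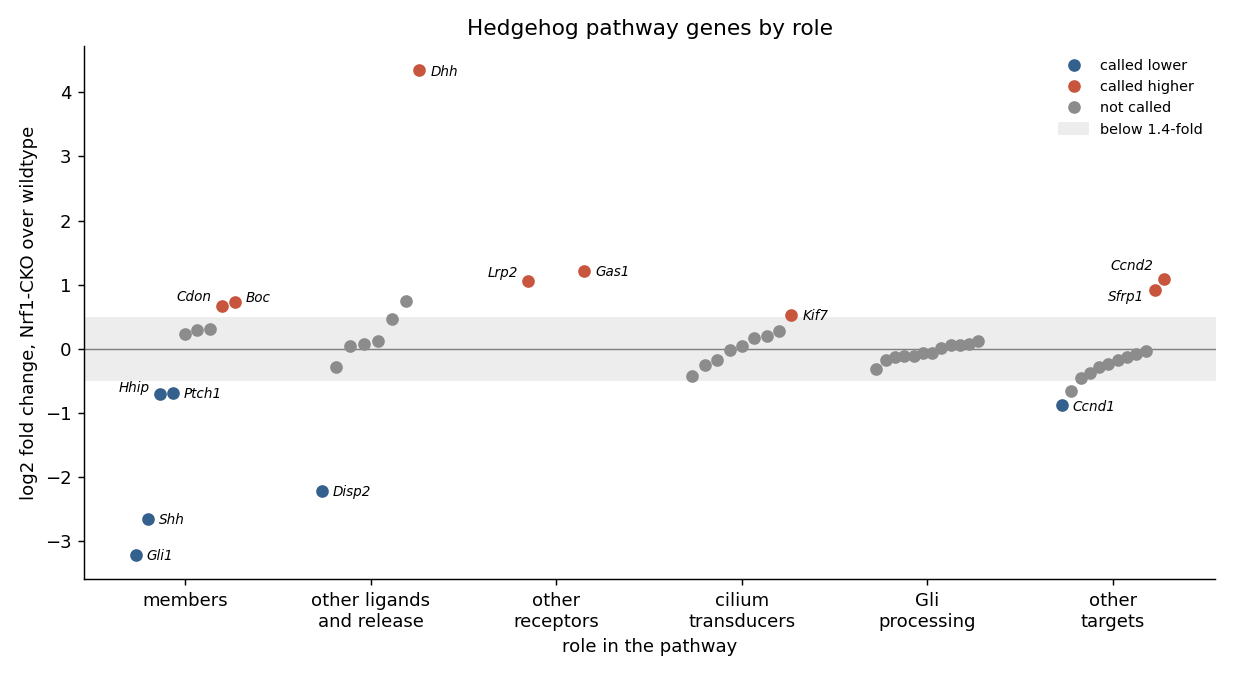
Log2 fold change, mutant over wildtype, of the 9 members and of the 43 other pathway genes tested, by role, 1 point per gene. Blue points were called lower, red points higher, grey points were not called, and the grey band marks changes below 1.4-fold. The 12 genes of Gli processing all lie in the band, while both other receptors lie above it.

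Of 13 further genes that are known as Hedgehog targets in some tissue, 12 were tested, and *Ccnd1* was called lower and *Ccnd2* and *Sfrp1* higher. These 3 of 12 genes are 25%, near the 20.9% of all tested genes. *Ccnd1*, which encodes cyclin D1, the main D-type cyclin of RPCs, had 2541 and 2775 CPM in wildtype and 1390 and 1502 CPM in mutant libraries. The change was -0.88 in log2 (SE 0.08, edgeR adjusted p = 0.000229). *Ccnd2*, the gene of a second D-type cyclin, had 126 and 123 CPM against 294 and 237 CPM, or 1.09 in log2 fold change (SE 0.11, edgeR adjusted p = 0.000238). The 2 cyclin genes therefore moved in opposite directions, and *Ccnd1* stayed the higher in reads. *Sfrp1*, the gene of a secreted Wnt inhibitor, had 94.3 and 95.8 CPM against 197 and 162 CPM, with a log2 fold change of 0.92.

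The other 9 targets tested were not called. *Hes1*, a transcription factor gene that keeps RPCs undifferentiated and that also answers to Notch, had 139 and 137 CPM in wildtype and 104 and 122 CPM in mutant libraries, a log2 fold change of -0.29 that was below 1.4-fold and so not called (adjusted p = 0.0525 from edgeR). *Mycn*, a gene of cell growth, had 153 and 159 CPM against 152 and 143 CPM and was not called either. The optic stalk and ventral retina genes *Pax2*, *Vax1* and *Vax2* had log2 fold changes of -0.18, -0.45 and -0.13, and the genotypes overlapped in each. *Nkx2-2* had 10 reads in 1 wildtype library and 0 in the other 3 libraries, and was not tested.

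The genes whose pattern over the 4 libraries was nearest to those of *Gli1* and *Shh* were found by the distance between centred log2 CPM profiles. Among 11325 other genes with a mean of at least 5 CPM, the nearest to *Gli1* were *Mstn* (distance 0.355), *Irx4* (0.395), *Nrn1* (0.479), *Krt73* (0.551) and *Rph3a* (0.647). *Mstn*, the gene of the growth factor myostatin, had 797 and 822 reads in wildtype and 140 and 70 reads in mutant libraries, lower in mutant replicate 2 as in *Gli1*. Among 14178 genes with a mean of at least 0.5 CPM, the nearest to *Shh* were *Ppp1r1c* (distance 0.985), *Gpr139* (1.08), *Nkx6-2* (1.13), *Nr0b1* (1.16) and *Tmem130* (1.28). *Ppp1r1c*, the nearest, had 230 and 224 reads against 73 and 11 reads, so it too was much lower in mutant replicate 2. These distances describe 4 libraries and were not tested.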

How the data were processed

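RNA-seq counts of 4 libraries from E13.5 retinas, 2 wildtype and 2 Nrf1 f/f;Six3-Cre, were used. Reads were aligned by the authors to mm10 using TopHat2 (version 2.7.2 as the submitters' processing notes give it), and counted per gene with HTSeq. The counts were deposited by the authors without normalization. They also deposited normalized values on a log2 scale, in which a count of 0 has the value 8.13 in every library, and the submitters' processing notes name DESeq and limma without saying which step used them. The header lines hold blank cells, so the 4 names were read in order over the 4 columns of values. The 5 HTSeq summary rows, 74.0% to 75.0% of all entries, stayed out. Reads with several alignments made up the larger share of them.

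Genes were filtered with filterByExpr at a minimum count of 10, scaled with TMM factors (0.992 to 1.02) and tested in edgeR 4.0.16 (R 4.3.3) by quasi-likelihood, with adjustment over all 15762 genes. The test was checked on simulated counts. Standard errors were obtained as the log2 fold change over the root of F. The study names Cuffdiff, which needs aligned reads, not used here. Replicates of a genotype differed by more than sampling noise, the chi-square per gene being 42.0 (wildtype) and 51.5 (mutant). Read counts include PCR copies, which are not independent molecules. The alternatives were DESeq2 1.42.0, other scalings and filters, the replicate number as a block, glmTreat, a stricter adjusted p, limma 3.58.1 on the deposited values, and each library left out. The members, lists and thresholds were chosen with earlier results of these data known. The text names all members, all called genes of the pathway list with *Hes1*, *Mycn* and *Sufu*, and the 5 genes nearest to *Gli1* and to *Shh*. Further genes (*Ihh*, *Disp1*, *Pax2*, *Vax1*, *Vax2*, *Nkx2-2*) were named after their values were seen. The other genes of the pathway list enter only the counts, and 1 further pathway gene was left out of the list and is not reported here. *Grk2* is listed under its older name *Adrbk1*. Positions and transcript lengths come from GENCODE M21 on GRCm38.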

Additional observations from a re-analysis of the deposited data

How the results depend on the processing

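The 2 libraries of each genotype give a rough estimate of the spread, and few reads limit the values of *Shh* and *Dhh*. Over the 15 alternatives, 132 values of the members had the same direction and the same side of the thresholds as reported. The other 2 values were of *Hhip*, at -0.43 on the deposited normalized values and at -0.71 with glmTreat, where its adjusted p of 0.314 was the highest in a range from 0.00181. *Shh* could not be tested with at least 10 counts in every library. On the deposited normalized values, *Shh* was at -0.68 and *Gli1* at -2.47, both still called, and the differences of the ratios of *Gli1* to *Gli2* and to *Gli3* were -2.74 and -2.77. Genes called lower over the whole table numbered 743 with glmTreat and 723 on the deposited values, and those called higher 1188 and 945, against 1268 and 2024. Scaling to the 11 RPC genes, an alternative chosen after seeing the data, moved the median of all genes by 0.17 on the log2 scale and gave 885 lower and 2872 higher genes. The calls of the members did not change with it, and *Mycn* turned from -0.08 to 0.093. With the replicate number as a block, 4 members were called lower and 2 higher, as without it, *Shh* was at -3.11, and the whole table had 1256 lower and 1970 higher genes. The deviations of same-numbered libraries were not correlated over genes (r = -0.0070), and the numbers mark no shared litter or day in the labels. Among the other named pathway genes, *Kif7* was not called with glmTreat or on the deposited values. *Dhh* was not called on the deposited values, where differences between low counts are compressed.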
